A study of Mus musculus with 10 samples.

Results

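The regions described here are the places near gene ends where all 9 peak lists of a p65 CUT&Tag series held a peak. Peaks of 9 CUT&Tag libraries on chromosomes 1 to 19, X and Y were merged where they shared at least 1 bp, and a merged region was kept when all 9 libraries had a peak in it and its midpoint lay within 3 kb of either end of a protein-coding gene. These constitutive gene-end regions numbered 7329 of 235070 merged regions (3.12%) and made up 53% of the 13824 regions with a peak in all 9 libraries. The other 6495 constitutive regions, which lay farther from gene ends, served as the comparison. Members were thus chosen by the measured presence of a peak in each library and by position, so neither is a finding, and a region that lost its peak in any library under a treatment could not be a member.

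The libraries came from RAW264.7 cells, a transformed mouse macrophage-like line, given for 12 h DMSO alone (the solvent), LPS in DMSO, or both LPS and skatole (LPS+Skatole), with 3 libraries per group and 200000 cells per library. LPS, a bacterial cell-wall component, activates macrophages, and skatole is a tryptophan metabolite of gut bacteria. No label states that the 3 libraries of a group came from separate cultures, so p-values measure the spread between these libraries, which may be technical. The labels name an antibody against p65 and the study's methods one against phosphorylated p65, so the form captured is uncertain. A sample made without primary antibody was not analysed here, so whether the peaks depend on the antibody was not tested. Each library pools many cells, so binding in fewer cells and weaker binding in each cell cannot be told apart.

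NF-κB is a family of transcription factors built from dimers of p65 (Rela), c-Rel, RelB, p50 and p52. In resting cells the dimers are held in the cytoplasm by IκB proteins. Signals such as LPS, read by Toll-like receptor 4, activate the IκB kinase complex, IκB is degraded and the dimers enter the nucleus, where they bind κB motifs at promoters and enhancers of cytokine genes and of their own inhibitors. CUT&Tag uses a transposase tethered to an antibody to cut DNA beside the bound protein, and the released fragments are sequenced.

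Promoter sequences from RefSeq (GRCm38.p6, 250 bases before to 50 after the annotated start) were available for 21262 protein-coding promoters, and 6764 of them, of 5837 genes, lay in 5119 of the 7329 regions. The first 5 below are shown because they hold matches to the κB consensus, in capitals, at genes of the NF-κB pathway and at one of the 10 tallest regions: Nfkbia (IκBα, the main inhibitor of p65, chr12:55492598-55492897, minus strand), Tnfaip3 (A20, a ubiquitin-editing inhibitor of the pathway, chr10:19015361-19015660, minus strand), Rel (c-Rel, chr11:23770920-23771219, minus strand), Nfkbie (IκBε, chr17:45555450-45555749, plus strand) and Sin3a (a corepressor scaffold, chr9:57076126-57076425, plus strand). The Acod1 promoter (the enzyme that makes itaconate, chr14:103046762-103047061, plus strand) is shown because its region rose most under LPS, and it holds no match to these letters. The last pair, the histone promoters of H2bc15 (chr13:21753826-21754125, plus strand) and H3c13 (chr3:96268404-96268703, plus strand), carry the CCAAT box, in capitals on either strand, and belong to regions that fell under LPS+Skatole. Acod1, H2bc15 and H3c13 were chosen after their values were seen.

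Nfkbia: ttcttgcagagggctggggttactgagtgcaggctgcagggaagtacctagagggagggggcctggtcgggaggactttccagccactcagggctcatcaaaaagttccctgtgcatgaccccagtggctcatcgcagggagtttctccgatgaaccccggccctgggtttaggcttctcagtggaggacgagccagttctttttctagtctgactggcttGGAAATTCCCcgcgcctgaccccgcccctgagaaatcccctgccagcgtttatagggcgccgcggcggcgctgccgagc
Tnfaip3: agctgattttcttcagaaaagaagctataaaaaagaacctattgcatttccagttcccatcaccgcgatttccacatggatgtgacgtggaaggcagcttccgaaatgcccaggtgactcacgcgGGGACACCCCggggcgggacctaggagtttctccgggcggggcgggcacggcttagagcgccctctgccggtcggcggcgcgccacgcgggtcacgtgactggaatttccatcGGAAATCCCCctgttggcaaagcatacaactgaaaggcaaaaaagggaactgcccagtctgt
Rel: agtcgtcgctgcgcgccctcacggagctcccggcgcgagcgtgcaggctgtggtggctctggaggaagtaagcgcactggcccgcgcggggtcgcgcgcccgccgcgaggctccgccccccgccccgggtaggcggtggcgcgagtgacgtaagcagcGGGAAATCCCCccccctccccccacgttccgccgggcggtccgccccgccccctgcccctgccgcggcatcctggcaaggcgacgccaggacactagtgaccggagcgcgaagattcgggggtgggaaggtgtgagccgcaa
Nfkbie: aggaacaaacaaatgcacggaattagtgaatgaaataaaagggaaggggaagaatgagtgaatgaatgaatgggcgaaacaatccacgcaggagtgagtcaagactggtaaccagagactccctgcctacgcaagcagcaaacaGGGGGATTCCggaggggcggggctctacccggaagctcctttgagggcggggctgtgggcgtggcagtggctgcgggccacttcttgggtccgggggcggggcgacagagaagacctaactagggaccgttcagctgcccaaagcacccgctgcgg
Sin3a: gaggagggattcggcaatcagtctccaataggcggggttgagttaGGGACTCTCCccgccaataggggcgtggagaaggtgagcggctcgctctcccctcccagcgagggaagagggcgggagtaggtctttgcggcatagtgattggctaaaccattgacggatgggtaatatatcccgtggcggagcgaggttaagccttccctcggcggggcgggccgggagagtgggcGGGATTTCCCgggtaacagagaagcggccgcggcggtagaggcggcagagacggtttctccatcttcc
Acod1: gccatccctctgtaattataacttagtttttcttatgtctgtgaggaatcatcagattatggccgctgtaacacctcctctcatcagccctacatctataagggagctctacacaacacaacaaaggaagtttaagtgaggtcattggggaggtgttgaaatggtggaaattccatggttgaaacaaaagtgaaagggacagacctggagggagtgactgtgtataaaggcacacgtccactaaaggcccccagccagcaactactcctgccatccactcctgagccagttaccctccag
H2bc15: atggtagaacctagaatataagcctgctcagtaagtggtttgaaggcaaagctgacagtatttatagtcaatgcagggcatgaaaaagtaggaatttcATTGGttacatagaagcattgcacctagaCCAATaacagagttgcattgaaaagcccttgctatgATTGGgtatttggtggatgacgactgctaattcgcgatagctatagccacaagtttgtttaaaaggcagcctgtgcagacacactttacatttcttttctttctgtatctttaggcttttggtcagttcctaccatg
H3c13: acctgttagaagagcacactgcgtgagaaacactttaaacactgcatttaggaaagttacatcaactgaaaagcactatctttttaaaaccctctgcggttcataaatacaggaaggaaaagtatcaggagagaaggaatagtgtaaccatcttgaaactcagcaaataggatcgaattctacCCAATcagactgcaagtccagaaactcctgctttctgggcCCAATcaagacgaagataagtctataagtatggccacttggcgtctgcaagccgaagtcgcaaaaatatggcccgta

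The κB match of Nfkbia began 29 bases upstream of the annotated start, those of Tnfaip3 125 and 12 bases upstream, those of Rel 92 and 91 bases upstream as 2 overlapping matches, that of Nfkbie 106 bases upstream and those of Sin3a 205 and 18 bases upstream. The CCAAT boxes of H2bc15 began 152, 123 and 87 bases upstream and those of H3c13 67 and 27 bases upstream. The promoters of Relb, Nfkb1, Nfkb2, Nos2, Il1b and Khdrbs1 are named only.

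Most regions sat close to gene ends. Their median width was 2328 bp, from 461 bp at Ctnnbip1 to 15501 bp at Fth1, the ferritin heavy chain gene. The median distance from midpoint to gene end was 430 bp, and 55.4% lay within 500 bp. They touched 8249 of 21883 protein-coding genes (37.7%), and 1826 regions had the ends of 2 genes within 3 kb and 157 those of 3 or more. By chromosome the share of genes with a region ran from 47.4% on chromosome 11 to 17.9% on X and 0.391% on Y. The share of merged regions at gene ends was 12.8% among regions found in 1 library, 28.2% among those in 8 and 53% among those in all 9.

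Values at the edges of the rule were as follows. The 47 members at 2901 to 3000 bp from a gene end had a median relative height of 0.874, and the 43 constitutive regions at 3001 to 3100 bp one of 0.897, where relative height is the summit count of a region divided by the median of all constitutive regions in the same library, so that 1 is a typical constitutive region. The weakest of a member's 9 peaks had a median −log10 p of 23.7 (lowest 5.002), against 9.82 for the weakest peak of the 1099 gene-end regions found in 8 libraries. Of those 1099 regions, 703 lacked a peak in a DMSO library, 180 in an LPS library and 216 in an LPS+Skatole library.

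The summit counts behind these heights were recovered from the deposited fold and −log10 p. Background, in fragments per position, was 1.09 to 1.40 in the DMSO libraries, 2.23 to 2.34 in the LPS libraries and 2.26 to 2.39 in the LPS+Skatole libraries, so the DMSO libraries were the shallowest. The median summit count of the members was 44 to 57 in DMSO, 74 to 82 in LPS and 87 to 91 in LPS+Skatole libraries, and the lowest member summit held 8 to 13 fragments. The median standard error of a log2 difference between groups was 0.252 for a single region.

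To compare peak heights at gene ends with those of other constitutive regions, summit counts were divided by the background of their library. Members were taller than constitutive regions elsewhere in all 9 libraries. The median member summit stood 40.4, 40.8 and 41.2 times over background in the DMSO libraries, against 26.6, 26.5 and 25.8 times elsewhere. In the LPS libraries it stood at 32.7, 33.2 and 35.0 times, against 23.5, 23.8 and 24.7 elsewhere, and in the LPS+Skatole libraries at 38.0, 38.5 and 38.0 times, against 30.8, 31.4 and 30.9. The gap between the 2 kinds of region was widest in DMSO and narrowest in LPS+Skatole libraries, and the groups did not overlap.

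On the log2 scale the gap was 0.634 ± 0.0395 with DMSO, 0.485 ± 0.0132 with LPS and 0.299 ± 0.00634 with LPS+Skatole (SD, n = 3; exact joint permutation test over 280 divisions, p = 0.00357, the smallest possible, and exact two-sided tests of each pair, p = 0.1, the smallest that 3 against 3 allows). Its mean over the 9 libraries was 0.473 (exact two-sided sign-flip test, p = 0.00391, the smallest possible). With the deposited fold, which divides by local background and not by that of the genome, the gap was 0.211 to 0.255 in DMSO, 0.0700 to 0.0971 in LPS and −0.119 to −0.0661 in LPS+Skatole libraries, and its mean of 0.0796 did not pass the test (exact sign-flip test, p = 0.125). The order of the groups was the same on both scales.

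**Figure D1:**
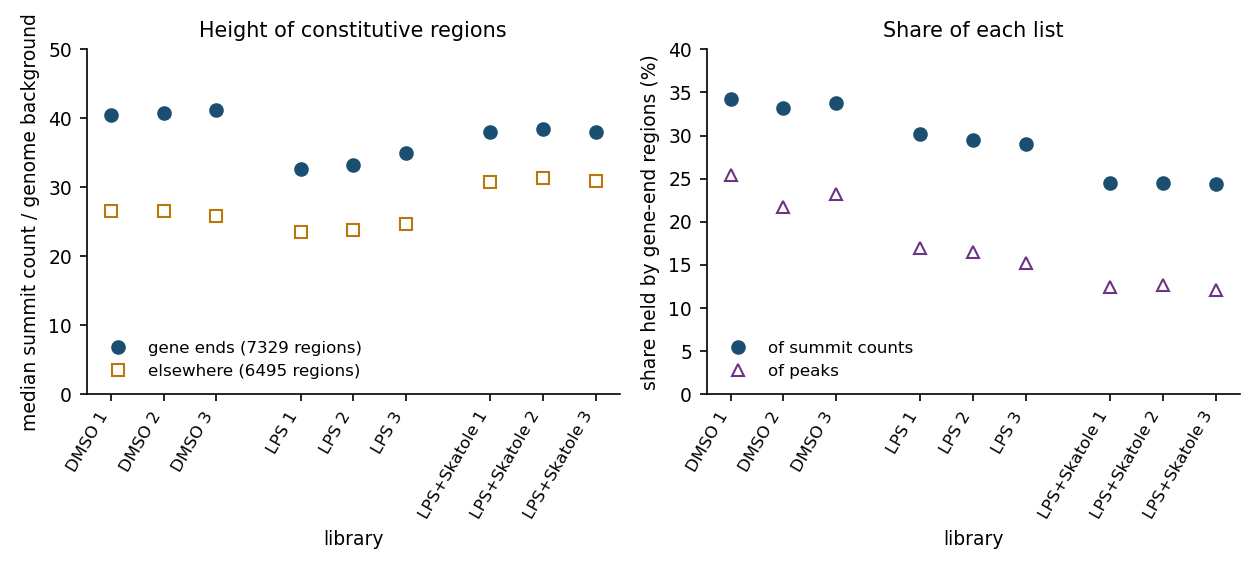
Left, median summit count divided by genome background in constitutive regions at gene ends (filled circles) and elsewhere (open squares), 1 point per library. Right, percent of each library's summit counts (circles) and peaks (triangles) held by the gene-end regions. The gene-end regions lie above the others in every library, between 32.7 and 41.2 times, and their share of summit counts runs from 34.2% to 24.4%.

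The share of each list that these regions held followed the same order, and describes list length in part, since every member is in every list by the rule while the lists held 37551 to 43450 peaks with DMSO, 55637 to 63498 with LPS and 78136 to 80153 with LPS+Skatole. They held 33.7% ± 0.537 of all summit counts with DMSO, 29.6% ± 0.635 with LPS and 24.5% ± 0.0503 with LPS+Skatole (SD, n = 3), given as a description with no test. Without 5 regions elsewhere that exceeded 100 times the median height and took 7.67% to 19% of the summit counts of a library, the shares were 41.1% ± 1.22, 32.5% ± 0.865 and 26.5% ± 0.098 (SD, n = 3). Of all peaks they held 23.4% ± 1.84, 16.2% ± 0.911 and 12.4% ± 0.293 (SD, n = 3).

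Peaks covered more of these regions with LPS and with LPS+Skatole, with the widths of all peaks of a library in a region summed. A library covered 1433 ± 77.2 bp per member with DMSO, 1656 ± 21.1 bp with LPS and 1717 ± 11.5 bp with LPS+Skatole (SD, n = 3; exact joint permutation test, p = 0.00357). In constitutive regions elsewhere the increase was larger, from 1155 ± 66.2 bp with DMSO to 1477 ± 20.2 bp with LPS and 1647 ± 12.2 bp with LPS+Skatole (SD, n = 3), and the difference between the increases was not tested. Depth moved with the groups, and its part in the covered lengths was not tested. Peaks per member averaged 1.29, 1.30 and 1.34, a difference that passed the exact joint permutation test (p = 0.0107). LPS and DMSO libraries overlapped in this measure (difference 0.0111, exact two-sided test, p = 0.3). Constitutive regions elsewhere averaged 1.24, 1.27 and 1.28 peaks (exact joint permutation test, p = 0.0393).

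Strand was known for the nearest gene of 5984 members, and the nearest end was the start of the gene in 5357 of them and its far end in 627. Start regions stood 42.2 to 43.4 times over background in DMSO, 34.0 to 36.3 in LPS and 38.9 to 39.8 in LPS+Skatole libraries, and far-end regions 30.0 to 30.3, 26.5 to 27.0 and 31.6 to 33.6 times. Start regions were thus the taller kind in every library. Among the 4433 members that held tabulated promoters on 1 strand only, a set picked by overlap with a start, the median top summit lay 59 to 71 bp upstream of the annotated start, depending on the library, and 69.3% to 73.4% of top summits lay within 250 bp of it.

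**Figure D2:**
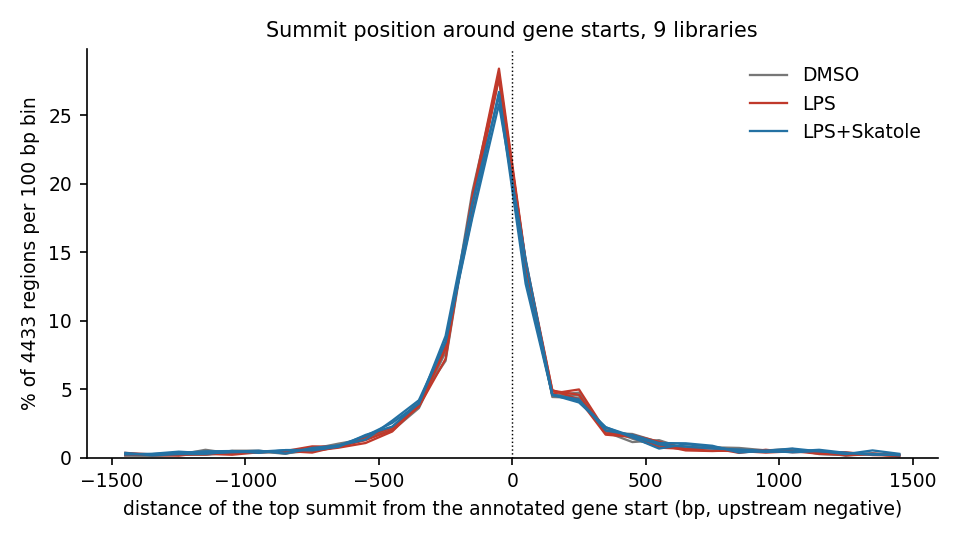
Position of the top summit of 4433 gene-end regions relative to the annotated gene start, in bp with upstream negative, as the percent of regions per 100 bp bin, 1 line per library coloured by group. The 9 lines lie on each other and peak in the bin just upstream of the start, with medians 59 to 71 bp upstream.

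The position of the top summit varied between libraries, with a median range of 368 bp over the 9 libraries of a region. In 4486 members (61.2%) the 9 top summits lay within 500 bp, against 47.2% of constitutive regions elsewhere, and in 574 (7.83%) they lay within 100 bp. Libraries of one group placed their top summits 228 bp apart on average and libraries of different groups 234 bp apart, a difference of 5.82 bp (exact permutation test, p = 0.00357). The ranges overlapped, 210 to 247 bp against 217 to 251 bp, and not every kind of pair followed the mean: pairs of LPS with DMSO lay 225 bp apart, beside 228 bp within DMSO, 210 bp within LPS and 245 bp within LPS+Skatole. The call was lost without LPS replicate 1 (2.78 bp, exact permutation test, p = 0.164), replicate 2 (1.55 bp, p = 0.293) or replicate 3 (3.70 bp, p = 0.107). Heights differed more between groups than within them, with a mean absolute log2 difference of 0.352 for pairs of one group (0.321 to 0.375) and 0.404 for pairs of different groups (0.377 to 0.46; exact permutation test, p = 0.00357). LPS+Skatole and DMSO libraries were the least alike, at 0.449, beside 0.38 for LPS with DMSO and 0.382 for LPS+Skatole with LPS.

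Members farther from a gene end were lower, with a median relative height of 1.21 at 0 to 100 bp and 0.881 at 2000 to 3000 bp. Members that held promoters on both strands, as at divergent gene pairs, had a median relative height of 1.48 (686 members), those with promoters on 1 strand 1.21 (4433 members) and those without a tabulated promoter one of 0.935 (2210 members).

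The sequences of the promoters in these regions were rich in G+C and in CpG. Their median G+C share was 62%, against 56.3% in all promoters of the table and 51% in the 10637 promoters without a peak in any library. The median CpG observed/expected ratio was 0.814, 0.567 and 0.279 in the same order, and 81.8%, 47.7% and 23.4% reached 0.6. A ratio near 1 marks CpG islands, which are the promoter class of broadly expressed genes.

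Motifs were counted on both strands of the 300 bases, by their letters alone, and matches of different motifs may overlap. The κB consensus was found in 5.26% of the promoters in members, 4.81% of all promoters and 4.3% of those without a peak. These shares lay close together, while GC-rich and core-promoter motifs differed more. GGGCGG, the SP1 box, was found in 69.3% of the promoters in members, 46.2% of all and 28.9% of those without a peak, and CCGGAAG, bound by ETS factors, in 22.4%, 11.6% and 3.92%. The rarer AAGATGGCG of YY1 (4.01%, 1.83% and 0.432%), TGCGCATGC of NRF1 (3.9%, 1.98% and 0.799%), TGACGTCA of CREB (3.8%, 2.23% and 1.11%) and the E-box CACGTG (11.2%, 7.84% and 5.52%) followed the same order. Shares ran the other way for TATAAA, the TATA box (6.25%, 12.6% and 18.3%), and for TGANTCA of AP-1 (4.08%, 6.99% and 8.47%). GAGGAAG of PU.1, the macrophage lineage factor, was near even (13.1%, 13.6% and 13.8%).

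CCAAT, the box bound by NF-Y, was found in 41.6% of the promoters in members, 38.2% of all and 37% of those without a peak. Its share was 30.2% in the lowest and 52.1% in the highest of 5 equal groups of members by mean height, while the κB consensus was found in 5.54% and 6.07% of the same groups. No test was made of these shares, and base composition differed between the promoter sets, whose part in the shares was not tested.

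**Figure D3:**
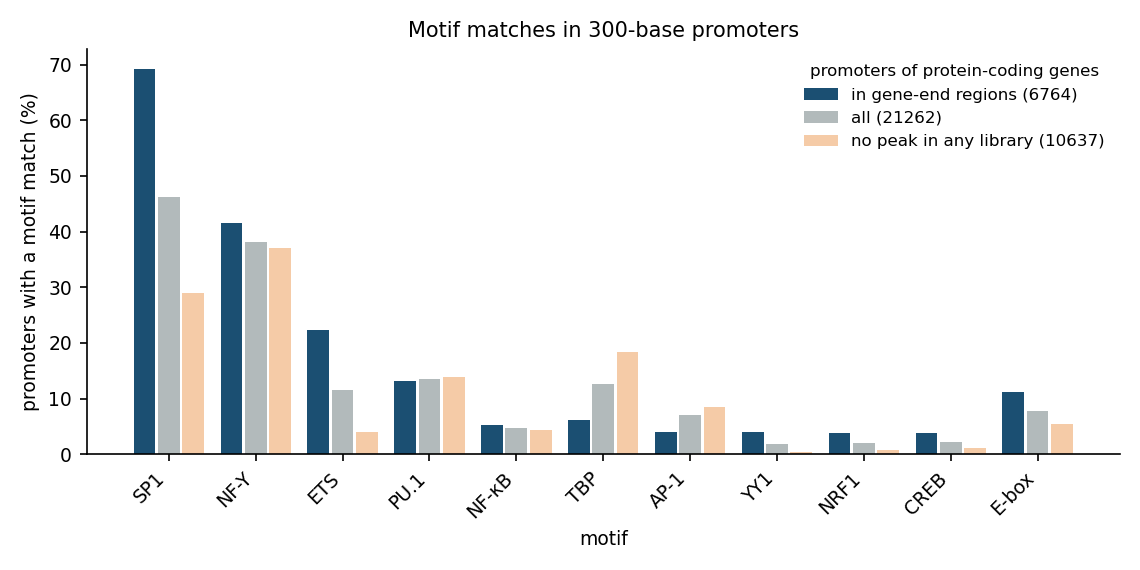
Percent of 300-base promoters with a match to each motif, for promoters in gene-end regions (dark), all promoters of the table (grey) and promoters without a peak in any library (light). Bars for SP1 and ETS motifs are tallest in the gene-end regions (69.3% and 22.4%), bars for the TATA box (label TBP) lowest (6.25%), and bars for κB lie near 5%.

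The 10 tallest members lay at genes of varied roles. Srgap2, with Fam72a beside it, led with a mean relative height of 7.8, followed by Sin3a (7.53), Sp1 (7.4, the factor that binds the SP1 box), Ensa (7.37), Khsrp, Usp5, Cic, H3c15, Relb (6.62) and Gatad2a (6.56). Relb encodes an NF-κB subunit, and its region also lies within 3 kb of Clptm1. The lowest were Foxp1, Marveld1, Dnajb6, Stac and Map4k4, with Foxp1 at 0.325. From the lowest to the highest member, height thus spanned a broad range, with 0.519 at the 5th percentile, 1.14 at the median and 3.13 at the 95th percentile.

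Gene lists were compared by the share of their genes with a region. Housekeeping lists were covered at more than the share of all genes: 82.4% of 34 spliceosome and SR protein genes, 81.2% of 64 replication-dependent histone genes, 80.7% of 83 cytosolic ribosomal protein genes, 76.9% of 39 proteasome subunits, 76.5% of 81 oxidative phosphorylation subunits and 74.4% of 78 mitochondrial ribosomal protein genes, beside 37.7% of all genes. The NF-κB pathway lists also exceeded the share of all genes, with 4 of 5 subunits (all but Nfkb2), 11 of 15 IκB and feedback inhibitor genes and 25 of 31 genes from the LPS receptor to the IκB kinases. AP-1 and ATF factors had the highest share of all lists, 13 of 15.

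Cytokine and chemokine genes were covered less than the lists above, with 16 of 35 (45.7%), beside 37.7% of all genes. Among the 16 were Tnf, Il1b, Il1a, Il18, Ccl3, Ccl4 and Cxcl10, while Il6, Il12b, Ccl2, Ccl5, Cxcl1 and Cxcl2 had no constitutive gene-end region. Of 20 macrophage lineage and surface genes 11 had one, among them Spi1 (PU.1), Cd68, Lyz2, Fcgr1 and Irf8, while Csf1r, Adgre1 (F4/80), Itgam (CD11b), Cebpa, Mertk and Mrc1 had none. A peak is not expression, so this only describes which marker genes held a region.

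Genes of other cell types were rarely covered: 2 of 15 T and B lymphocyte genes, 2 of 15 neuron genes, 1 of 15 hepatocyte and 1 of 15 chondrocyte and fibroblast genes. Olfactory receptor genes had a region at 4 of 1106 and keratins at 0 of 108. The lists were chosen with earlier results of these data known, and their shares are descriptions.

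**Figure D4:**
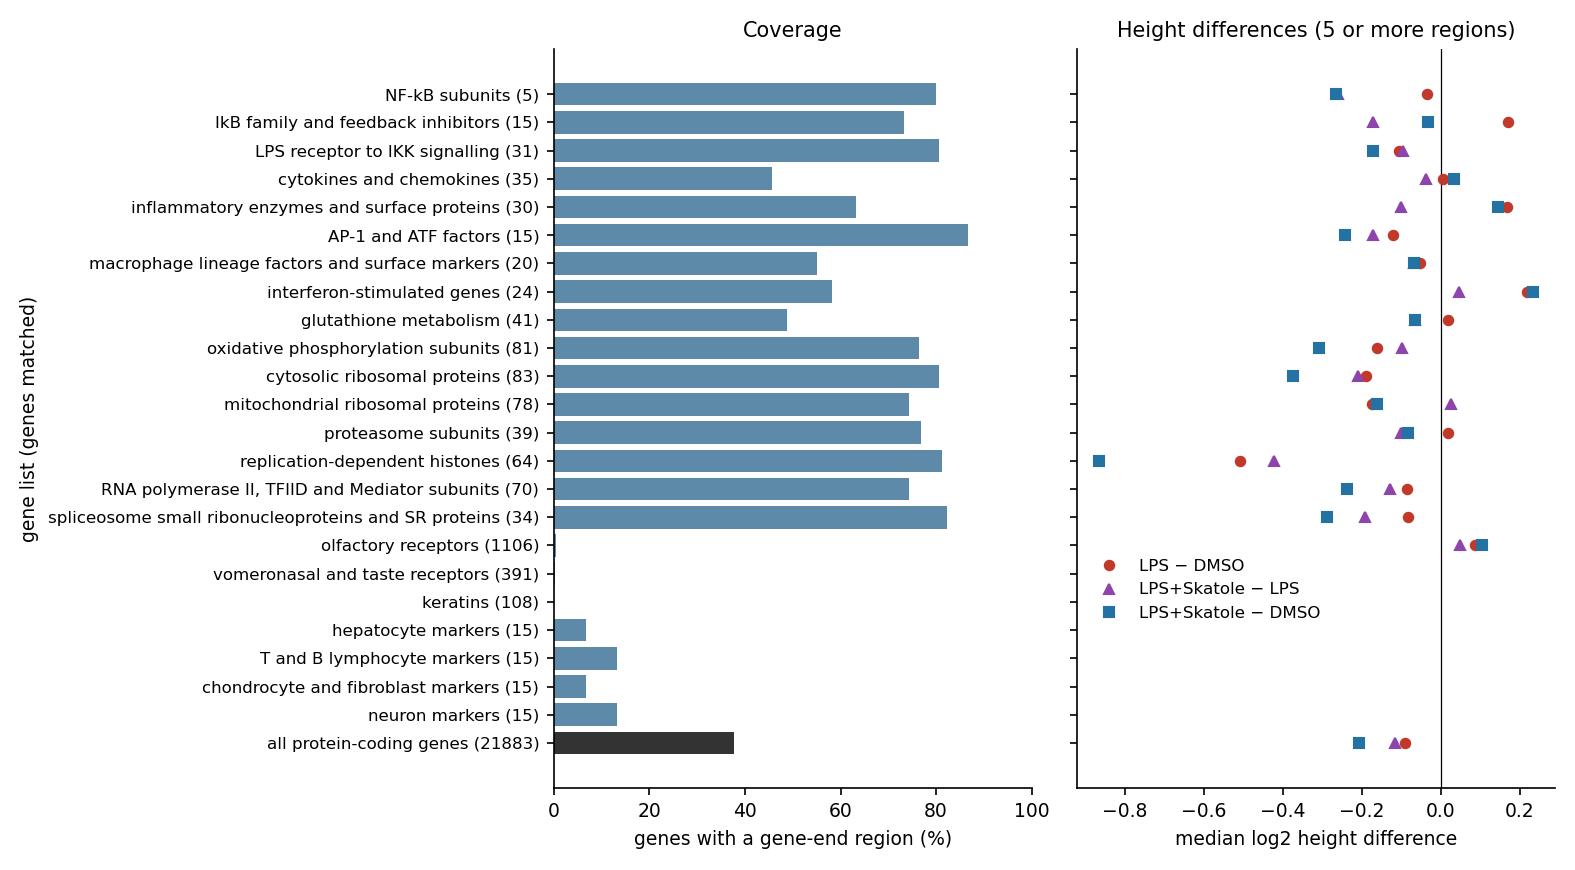
Left, percent of the genes of each list that had a constitutive gene-end region (number of genes matched in brackets). Right, median log2 difference in relative height over the regions of each list with 5 or more regions, for LPS minus DMSO (circles), LPS+Skatole minus LPS (triangles) and LPS+Skatole minus DMSO (squares). The histone list lies farthest to the left, at −0.508, −0.423 and −0.865.

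Members of the NF-κB pathway were then compared by library. The Relb region (chr7:19628029-19630538) had relative heights of 7.03, 6.35 and 8.51 in DMSO, 6.94, 6.70 and 7.03 in LPS and 5.68, 5.85 and 5.89 in LPS+Skatole libraries. The LPS+Skatole libraries were the lowest without overlap, but the difference from DMSO, −0.32 ± 0.12 (log2, SE), did not pass limma's test over all 13824 regions (adjusted p = 0.0975), nor did that from LPS (−0.25, adjusted p = 0.46). Rela, the gene of p65 itself, had a region at its start (chr19:5635917-5638532) of 1.24, 1.35 and 1.53 in DMSO, 1.33, 1.17 and 1.59 in LPS and 0.889, 1.07 and 1.27 in LPS+Skatole libraries, with overlapping groups.

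Rel (chr11:23767658-23773074) ranged from 1.94 to 3.00 over the 9 libraries and Nfkb1 (chr3:135688345-135691043) from 0.314 to 0.828, both with overlapping groups. Among the inhibitors, the taller of the Nfkbia regions (chr12:55489754-55496675) had relative heights of 3.32, 2.78 and 3.27 in DMSO, 3.58, 2.97 and 2.63 in LPS and 2.09, 2.12 and 2.54 in LPS+Skatole libraries. Here too the LPS+Skatole libraries lay below all others. Among all members, all 3 LPS+Skatole libraries lay below all DMSO libraries in 22.1%, beside 15.7% of all constitutive regions. They lay below all LPS libraries in 13.6%, beside 9.9%. The share of members below both groups at once was not computed. At Nfkbia the difference of LPS+Skatole from DMSO was −0.47 ± 0.17 (log2, SE, limma, adjusted p = 0.0753). Tnfaip3 (chr10:19014428-19016196) had 1.70, 1.76 and 1.96 in DMSO, 2.30, 2.02 and 2.26 in LPS and 2.05, 1.86 and 1.69 in LPS+Skatole libraries. The LPS libraries were higher than the DMSO libraries without overlap, as in 5.14% of all members and 8.82% of all constitutive regions. The difference, 0.28 ± 0.19 (log2, SE), did not pass the test (limma, adjusted p = 0.546).

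Nfkbib, the gene of IκBβ (chr7:28764187-28767723, also within 3 kb of Sirt2), was the tallest of the inhibitor list at a mean of 4.13. The regions near Tnf (chr17:35200240-35201353 and chr17:35201869-35202970, shared with the neighbouring Lta) lay between 1.47 and 2.65 in all 9 libraries, and that near Il1b (chr2:129372845-129374239) between 0.543 and 1.39. No region of the NF-κB subunit (6), IκB and feedback inhibitor (15) or cytokine and chemokine (19) lists was called by limma in any of the 3 comparisons below. At an unadjusted p under 0.05, 0, 1 and 1 of the subunit regions, 2, 2 and 3 of the inhibitor regions and 1, 2 and 2 of the cytokine regions passed for LPS against DMSO, LPS+Skatole against LPS and LPS+Skatole against DMSO. Of all 7329 members, 249 were higher and 645 lower at that threshold in the first comparison, 137 and 708 in the second and 253 and 1474 in the third, so the lists lay near or below the share of all members. Under the other settings tried, at most 1 region of the inhibitor list and 1 of the cytokine list was called, for LPS+Skatole against DMSO. For a region of median precision the standard error was 0.252, and calls in these fits needed a difference of several standard errors, so moderate changes at these genes could have been missed.

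To find members whose height changed with treatment, log2 relative heights of all 13824 constitutive regions were fitted with limma, and a region was called at a Benjamini-Hochberg adjusted p under 0.05. The 3 comparisons share libraries and are given side by side. Because a member needs a peak in all 9 libraries, falls to below the peak threshold cannot appear here.

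For LPS against DMSO, 38 members rose and 32 fell, 0.518% and 0.437% of the members, beside 1.27% and 0.499% of all constitutive regions tested. The regions elsewhere gave 138 rises and 37 falls. At an unadjusted p under 0.05, 249 members were higher and 645 lower, and the median difference was −0.0917 in members and 0.0296 elsewhere. Heights are relative to the median constitutive region of the library. Scaled by genome background instead, the median of all constitutive regions shifted by −0.252 for LPS against DMSO, 0.236 for LPS+Skatole against LPS and −0.0244 for LPS+Skatole against DMSO, and under that scaling 19 members rose and 417 fell with LPS. Centred on the gene-end regions alone, 57 rose and 17 fell, and after quantile normalization 31 rose and 12 fell. Of the 70 calls, 16 held in all 9 fits that left out 1 library each and 7 with the deposited fold, where 57 kept their sign. Without LPS replicate 1, 2 or 3 there were 12, 19 and 17 rises and 12, 15 and 17 falls, without DMSO replicate 1 or 2 25 and 24 rises, and without DMSO replicate 2 or 3 17 and 16 falls.

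The largest rise was at Acod1, which encodes the itaconate-forming enzyme of activated macrophages. Its region (chr14:103046129-103048712) had relative heights of 1.03, 0.739 and 0.822 in DMSO, 4.39, 5.33 and 4.71 in LPS and 4.56, 4.58 and 3.30 in LPS+Skatole libraries. It was 5.61-fold higher with LPS (log2 2.49 ± 0.18 SE, limma, adjusted p = 9.58e-12) and stayed 4.79-fold above DMSO with LPS+Skatole. A second region near the other end of Acod1 (chr14:103057309-103060312), added after its values were seen, rose 1.82-fold (adjusted p = 0.0296), a call lost without DMSO replicate 2 (0.0866) or 3 (0.147) or LPS replicate 1 (0.148) or 2 (0.156), under genome background scaling, and with the deposited fold, where the sign was opposite (log2 −0.31).

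The Nos2 region (chr11:78918466-78923602), at the gene of inducible nitric oxide synthase, had relative heights of 0.541, 0.435 and 0.511 in DMSO, 1.39, 1.92 and 1.61 in LPS and 1.11, 1.07 and 1.07 in LPS+Skatole libraries. The groups did not overlap, and LPS+Skatole lay between the others. It was 3.30-fold higher with LPS than with DMSO (log2 1.72 ± 0.25 SE, limma, adjusted p = 4.07e-05). The difference of LPS+Skatole from LPS, −0.58 ± 0.25 (log2, SE), did not pass the test (adjusted p = 0.372).

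Gstp3, a glutathione S-transferase gene in a cluster of near-identical copies, so that its reads are uncertain, had a region (chr19:4057195-4063818) of 0.405, 0.587 and 0.467 in DMSO and 1.64 to 2.36 in LPS libraries, 4.28-fold higher (log2 2.10 ± 0.23 SE, limma, adjusted p = 2e-07). Ifi211, of the interferon-inducible p200 family, rose by 1.81 and Slc28a3, a nucleoside transporter, by 1.59 on the log2 scale. Acod1, Gstp3, Ifi211, Nos2 and Slc28a3 stayed called in each fit that left out 1 library.

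The largest falls with LPS were at Smim4 (log2 −1.67 ± 0.30 SE, adjusted p = 0.000736), H3f4 (−1.55 ± 0.27, adjusted p = 0.000477), Mdh1 (−1.41 ± 0.24, adjusted p = 0.000383), Rab3a (−1.38 ± 0.27, adjusted p = 0.00275) and Rpp14 (−1.21 ± 0.27, adjusted p = 0.0107; limma). Mdh1 encodes cytosolic malate dehydrogenase and H3f4 a histone H3. The Rpp14 call was lost without DMSO replicate 3 (adjusted p = 0.0513) or LPS replicate 2 (adjusted p = 0.095). With the deposited fold, which divides by local background, the differences of Smim4, H3f4, Mdh1 and Rab3a had the opposite sign (log2 1.34, 0.18, 1.02 and 2.27), so these falls rest on the summit count.

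For LPS+Skatole against LPS, the comparison that asks what skatole changed under LPS, 3 members rose and 10 fell, 0.0409% and 0.136% of the members, beside 0.0506% and 0.123% of all constitutive regions. At an unadjusted p under 0.05, 137 were higher and 708 lower. Under genome background scaling 42 rose and 3 fell, and centred on the gene-end regions 4 rose and 4 fell, so the direction of the group as a whole depends on the scaling, with a member median of −0.115 in the fit and 0.161 under background scaling. Of the 13 calls, 0 held in all 9 fits that left out 1 library each, and 0 passed the test with the deposited fold, where 8 kept their sign. Without LPS replicates 1, 2 and 3 in turn 4, 3 and 4 of them held, without LPS+Skatole replicates 1, 2 and 3 9, 7 and 3, and without DMSO replicates 1, 2 and 3 13, 11 and 12.

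Mdh1 (chr11:21568183-21573094, also near Wdpcp) had relative heights of 2.03, 2.13 and 1.56 in DMSO, 0.859, 0.516 and 0.800 in LPS and 1.95, 1.45 and 2.14 in LPS+Skatole libraries. It was low in the LPS libraries alone, and the LPS+Skatole values overlapped those of DMSO. It was 2.58-fold higher with LPS+Skatole than with LPS (log2 1.37 ± 0.24 SE, limma, adjusted p = 0.00503), a call lost without LPS replicate 2 (adjusted p = 0.0555) or LPS+Skatole replicate 3 (adjusted p = 0.0567). H3f4 (chr11:58958704-58960964) showed the same order, with 1.51, 1.33 and 1.62, then 0.453, 0.484 and 0.586, then 1.07, 1.06 and 1.99 (log2 1.38 ± 0.27 SE, adjusted p = 0.0147). That call was lost without LPS replicate 1 (0.098) or 2 (0.0556) or LPS+Skatole replicate 3 (0.142). With the deposited fold both differences were negative (−1.61 and −0.57).

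The remaining rise was at Abraxas1 (log2 1.41, adjusted p = 0.0443), which encodes a scaffold of a BRCA1 complex. The falls were at Khdrbs1 (log2 −1.55), Cenpl (−1.31), Nfe2l3 (−1.29), Osgep (−1.28), H2bc15 (−1.13), H4c2 (−0.92), Fzd5 (−0.91), H3c13 (−0.85), H3c15 (−0.63) and Fzr1 (−0.63), of which 4 are histone genes. The differences of Cenpl, Khdrbs1 and H2bc15 had the opposite sign with the deposited fold (log2 0.49, 0.43 and 0.19). Over the fits without 1 library the adjusted p ran up to 0.227 for Abraxas1 (without LPS replicate 1), and that of the falls up to 0.0632 for H3c15, 0.13 for H3c13, 0.136 for Khdrbs1, 0.138 for Nfe2l3, 0.177 for Cenpl, 0.192 for Fzd5 and for Fzr1, 0.219 for H4c2, 0.237 for Osgep and 0.294 for H2bc15. Khdrbs1 (Sam68, an RNA-binding protein, chr4:129740784-129743089) stood at 1.52, 1.67 and 1.67 in LPS and at 0.395, 0.337 and 1.25 in LPS+Skatole libraries, the last near the LPS values. Fzr1 (Cdh1, an activator of the anaphase-promoting complex, chr10:81376163-81379453) stood at 6.05, 7.36 and 6.26 in LPS and 4.31, 4.05 and 4.27 in LPS+Skatole libraries, without overlap.

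For LPS+Skatole against DMSO, 82 members rose and 470 fell, 1.12% and 6.41% of the members, beside 3.88% and 4.21% of all constitutive regions. Regions elsewhere ran the other way, with 455 rises and 112 falls (7.01% and 1.72%). At an unadjusted p under 0.05, 253 members were higher and 1474 lower, and the median difference was −0.208 in members and 0.0819 elsewhere. The split depends on the centring: centred on the gene-end regions alone, 169 members rose and 158 fell, under genome background scaling 106 rose and 279 fell, and after quantile normalization 92 rose and 191 fell. Of the 552 calls, 134 held in all 9 fits that left out 1 library each, 361 under background scaling and 33 with the deposited fold, where 508 kept their sign. Without LPS+Skatole replicate 1, 2 or 3 there were 53, 47 and 50 rises, without DMSO replicate 1, 2 or 3 303, 281 and 264 falls, and without LPS+Skatole replicate 1 or 2 310 and 312 falls.

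More of the taller members fell. From the lowest to the highest of 5 equal groups of members by mean height, 37, 34, 73, 123 and 203 fell, and the median difference went from −0.174 to −0.269. By distance from the gene end the median difference of all members was −0.235 at 0 to 100 bp and −0.0865 at 2000 to 3000 bp. Taller regions are measured with more fragments, and the part of that precision in the counts of falls was not tested. Of the promoters in members that fell, 54.3% of 495 held CCAAT, against 41.6% in all members, and of those in members that rose 18.9% of 37. Height moved with CCAAT as well, as given above. Over all members with a promoter, the median differences with and without CCAAT lay close together for LPS+Skatole against DMSO, at −0.243 and −0.213. For LPS+Skatole against LPS they were −0.129 and −0.141. They lay farther apart for LPS against DMSO, at −0.124 and −0.0763.

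The largest falls were at H2bc15 (log2 −2.00 ± 0.25 SE, adjusted p = 1.84e-06), Alg8 (−1.91 ± 0.31, adjusted p = 0.000119), an enzyme of N-glycan assembly, Arl5a (−1.61 ± 0.31, adjusted p = 0.00106), Khdrbs1 (−1.61 ± 0.31, adjusted p = 0.00117) and Rpa2 (−1.60 ± 0.30, adjusted p = 0.000743), a subunit of the single-strand DNA binding protein RPA (limma). The largest rises were at Acod1 (2.26), Gstp3 (2.25), Ifi211 (1.95), Nsun3 (1.70) and Slc28a3 (1.65). All 10 stayed called in each fit that left out 1 library. With the deposited fold, the falls of H2bc15 and Khdrbs1 had the opposite sign (log2 0.09 and 0.19).

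**Figure D5:**
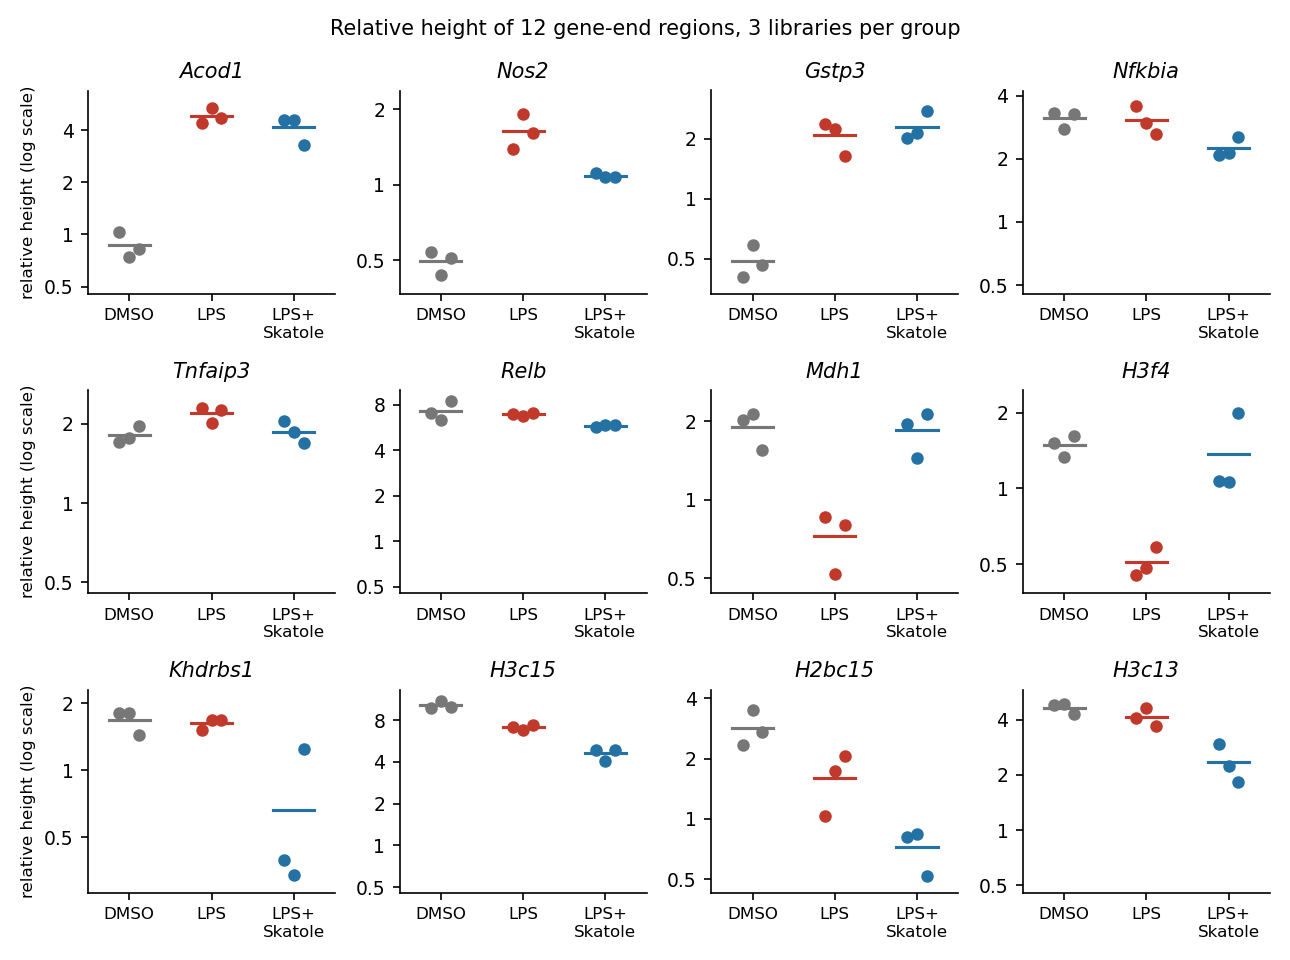
Relative height of 12 named gene-end regions on log axes, 1 point per library and a line at the arithmetic mean of the relative heights, for DMSO, LPS and LPS+Skatole. Acod1, Nos2 and Gstp3 are higher with LPS and with LPS+Skatole, Mdh1 and H3f4 are low with LPS alone, and the histone genes H3c15, H2bc15 and H3c13 are lowest with LPS+Skatole.

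Among the gene lists with 5 or more regions, the replication-dependent histones had the most negative medians in all 3 comparisons. These genes, in clusters on several chromosomes, make the core and linker histones that package new DNA in S phase. In 32 regions at 52 of their 64 genes, 25 fell with LPS+Skatole against DMSO and 0 rose (limma; 29 and 0 at an unadjusted p under 0.05), 4 fell against LPS, and 2 fell with LPS against DMSO, beside falls in 6.41%, 0.136% and 0.437% of all members. Leaving out 1 library gave 20 to 23 falls in the first comparison. In the second, 1 was called without LPS replicate 1, 2 or 3 or LPS+Skatole replicate 3, 2 without LPS+Skatole replicate 2 and 7 without LPS+Skatole replicate 1. In the third, 0 were called without DMSO replicate 2 or LPS replicate 1 or 2, and 1 without DMSO replicate 1 or LPS replicate 3. The median differences were −0.865, −0.423 and −0.508, beside −0.208, −0.115 and −0.0917 over all members. Histone genes are near-identical copies, so the assignment of their reads is uncertain. Under genome background scaling 22 fell with LPS+Skatole against DMSO, 0 against LPS, where the median became −0.148, and 18 with LPS against DMSO. With the deposited fold 2, 0 and 0 fell, with medians of −0.701, −0.281 and −0.609.

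H3c15, with H2ac19 beside it (chr3:96236640-96241063), was one of the 10 tallest members and was called in all 3 comparisons. Its relative heights were 9.78, 11.0 and 10.0 in DMSO, 7.16, 6.83 and 7.36 in LPS and 4.85, 4.05 and 4.89 in LPS+Skatole libraries, a stepwise fall without overlap. The log2 differences were −0.53 ± 0.12 SE for LPS against DMSO (adjusted p = 0.0107), −0.63 ± 0.12 for LPS+Skatole against LPS (adjusted p = 0.00891) and −1.16 ± 0.12 for LPS+Skatole against DMSO (adjusted p = 1.72e-08; limma). The first call was lost without DMSO replicate 2 (0.0714) or LPS replicate 1 (0.0506) or 2 (0.0668), the second without LPS replicate 1 (0.0602) or 3 (0.0632) or LPS+Skatole replicate 2 (0.0631), and the third held in all 9 fits.

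H2bc15, with H2ac15 beside it (chr13:21752565-21755663), had 2.35, 3.50 and 2.73 in DMSO, 1.03, 1.73 and 2.07 in LPS and 0.815, 0.837 and 0.518 in LPS+Skatole libraries. H3c13, with H2bc18 beside it (chr3:96267177-96270351), had 4.81, 4.85 and 4.29, then 4.11, 4.66 and 3.71, then 2.95, 2.25 and 1.83. In both the LPS+Skatole libraries were the lowest without overlap. Of 44 promoters of histone genes in these regions, 38 (86.4%) held CCAAT, 24 (54.5%) TATAAA and 0 the κB consensus. Outside the histone regions, CCAAT was found in 51.9% of 457 promoters in members that fell with LPS+Skatole against DMSO and in 41.3% of all 6720. Of these 6720, 5.94% held TATAAA and 5.3% the κB consensus, a share at which few of 44 promoters would match. The SP1 box was found in 15 of the 44 histone promoters (34.1%) and in 69.5% of the 6720.

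Cytosolic ribosomal protein genes had a median difference of −0.373 for LPS+Skatole against DMSO over 87 regions, of which 8 fell and 0 rose (limma; 33 were lower and 0 higher at an unadjusted p under 0.05), beside falls in 6.41% of all members. Oxidative phosphorylation subunits had a median of −0.308 over 72 regions, of which 7 fell and 0 rose (17 were lower and 1 higher at an unadjusted p under 0.05). In both lists the share of called falls was not far above that over all members. At an unadjusted p under 0.05, 1474 of all 7329 members were lower. By that count the ribosomal list lay well above the share of all members and the oxidative phosphorylation list near it. Centred on gene-end regions, 5 ribosomal and 3 oxidative phosphorylation regions fell and 1 of the latter rose. Under that centring the medians were −0.199 and −0.134, beside −0.0351 over all members. In the main scaling without DMSO replicate 3, 5 ribosomal regions fell. Of the oxidative phosphorylation regions 3 fell without DMSO replicate 3, 3 without LPS+Skatole replicate 1 (where 1 rose), and 4 without DMSO replicate 2 or LPS+Skatole replicate 3. Uqcrc2, a core subunit of complex III, fell by 1.27 on the log2 scale (SE 0.26, adjusted p = 0.00241). That call held in all 9 fits that left out 1 library. With the deposited fold, 0 of the ribosomal and 1 of the oxidative phosphorylation regions passed the test. For LPS against DMSO, 0 regions of either list were called, with medians of −0.19 (ribosomal) and −0.161 (oxidative phosphorylation). Between LPS+Skatole and LPS 0 were called as well, with medians of −0.209 and −0.0994. Under genome background scaling these last medians were 0.066 and 0.176. Uqcrc2, Ptgs2, Mmp14, Ddx58, Map3k7 and Traf3 were named after their values were seen.

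Of 21 regions of inflammatory enzymes and surface proteins, 3 rose with LPS against DMSO (both Acod1 regions and Nos2; 0.518% of all members rose) and 5 with LPS+Skatole against DMSO (1.12% of all members), where Ptgs2 (cyclooxygenase 2, log2 0.92, adjusted p = 0.043) and Mmp14 (a membrane-bound matrix metalloproteinase, log2 0.90, adjusted p = 0.0418) joined them. At an unadjusted p under 0.05, 6 were higher and 0 lower in the first comparison and 6 higher and 4 lower in the second. The median difference with LPS was 0.167, and −0.0417 under genome background scaling. Without DMSO replicate 2 there were 2 rises in the second comparison, and 3 without DMSO replicate 3, LPS replicate 3 or any of the LPS+Skatole libraries. In the first comparison 2 were called without LPS replicate 1 or 2 or DMSO replicate 2 or 3.

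Of 17 regions of interferon-stimulated genes, 1 rose with LPS against DMSO, that nearest Agrn at Isg15 (named after its values were seen), beside 0.518% of all members, and 1 with LPS+Skatole against DMSO, beside 1.12%. At an unadjusted p under 0.05, 5 and 4 were higher and 0 and 0 lower. The Agrn call (log2 0.89, limma, adjusted p = 0.0251) was lost without DMSO replicate 1 (0.0803) or 3 (0.0837) or LPS replicate 1 (0.111), 2 (0.0679) or 3 (0.0959). The other region, Ddx58 (RIG-I, a sensor of viral RNA), was higher with LPS+Skatole than with DMSO (log2 1.06, adjusted p = 0.0263). Leaving out 1 library ended the calls of Ptgs2, Mmp14 and Ddx58 in some fits. That of Ptgs2 held in 2 of the 9 fits that left out 1 library, that of Mmp14 in 4 and that of Ddx58 in 5, and the adjusted p rose to 0.145 for Ptgs2 (without DMSO replicate 2), 0.168 for Mmp14 (without LPS+Skatole replicate 1) and 0.101 for Ddx58 (without DMSO replicate 1).

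Of 30 regions of signalling genes from the LPS receptor to the IκB kinases, 2 fell with LPS+Skatole against DMSO, a share close to the 6.41% of all members. These regions, of Map3k7 (TAK1, which activates the IκB kinases, log2 −0.94, adjusted p = 0.0164) and Traf3 (an adaptor of the receptor complexes, log2 −0.88, adjusted p = 0.0111), were lower with LPS+Skatole than with DMSO (limma). The Map3k7 call was lost without DMSO replicate 3 (0.0825) or LPS+Skatole replicate 1 (0.076), and the Traf3 call without DMSO replicate 1 (0.0613) or LPS+Skatole replicate 2 (0.0669). Of 12 regions of macrophage genes, 2 fell with LPS+Skatole against DMSO, beside 6.41% of all members, and 1 was higher and 4 lower at an unadjusted p under 0.05. They were at Fcgr1 (a high-affinity Fc receptor, log2 −0.89, adjusted p = 0.0312) and Mitf (a transcription factor of macrophages and pigment cells, log2 −0.96, adjusted p = 0.0271; limma). The adjusted p rose to 0.171 for Fcgr1 without LPS+Skatole replicate 2 and to 0.161 for Mitf without LPS+Skatole replicate 1, and both calls were also lost without any single DMSO library. Spi1 (−0.51, adjusted p = 0.155) and Cd68 (−0.34, adjusted p = 0.155) did not pass the test.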

How the data were processed

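CUT&Tag peak lists of 9 libraries (DMSO, LPS and LPS+Skatole, 3 each) were used, and 1 Blank sample was not analysed here. The authors deposited 1 narrowPeak list per library, with a score, a fold (a ratio of summit pileup to local background), a −log10 p-value and a −log10 q-value per peak. The peak caller is not given in the sources used here. The submitters' processing notes list the build mm10, fastp 0.20.1, HISAT2 2.1.0 and StringTie 2.0. The deposited score and q-value were not used further. Summit counts were recovered from the deposited fold and −log10 p as the count c for which fold = (c + 1)/(background + 1) and p is a Poisson upper tail, and at least 99.9928% of peaks in each list came out within 0.05 of a whole number. Peak starts were converted to 1-based coordinates. Genes and promoters came from RefSeq tables of GRCm38.p6 (21883 protein-coding genes), and the Benjamini-Hochberg adjustment ran over all 13824 constitutive regions. Where a library had several peaks in a region, the highest summit was taken. Differences came from limma 3.58.1 (R 4.3.3, empirical Bayes with trend, all 9 libraries) on log2(summit count + 1), a pseudocount of 1, centred on the median of constitutive regions, so folds are on that scale. Exact permutation tests used the 9 libraries as units. Group values are mean ± SD. Scripts used Python 3.11.15, pandas 2.3.3, NumPy 2.4.6 and SciPy 1.17.1, and the count recovery, exact tests and limma fit were tested on simulated data. Libraries of a group differed by more than counting noise, with a mean chi-square ratio of 2.38 to 4.48, and none was a repeat deposit. Replicate numbers did not pair the libraries. Alternatives covered other scalings, pseudocounts, filters, region rules, the sum of summits, the deposited fold, a replicate block and leaving out each library. The filter at 8 times the background, the centring on gene-end regions, the removal of the tallest regions, and, for the height gap, the 50% of regions with the greatest height and the mean over regions, were chosen after seeing the data. Named members were the 10 tallest and 5 lowest, up to 5 called rises and falls per comparison, all members of 4 pathway lists and the 2 tallest of each other list, and a region carries the name of its nearest gene end. Members, lists and tests were chosen with earlier results of these data known.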

Additional observations from a re-analysis of the deposited data

Results flagged for a closer look

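Regions outside chromosomes 1 to 19, X and Y were not used above. The 9 lists held 424 peaks on 21 such sequences, which merged into 173 regions, and 11 of these had a peak in all 9 libraries. They were singled out as signal in data that no comparison used.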

How the results depend on the processing

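Of 328 re-computations of the main results, 274 kept their direction and side of the threshold, 50 counts moved by more than 1.5 times, 4 tests no longer passed and 0 reversed. A turn in the balance of rises and falls was not labelled as reversed. For LPS+Skatole against LPS, 3 rises and 10 falls became 42 and 3 under genome background scaling. The member median there went from −0.115 to 0.161. For single named members, 1363 of 1729 kept their call, 345 lost it and 21 reversed. Where no cause is given, the cause was not tested. Requiring each library to cover 50% of a region left 1632 members. For LPS against DMSO, members rose and fell as follows: genome background scaling 19 and 417, sum of summits 23 and 14, deposited fold 8 and 4, with 12 falls after quantile normalization and 17 centred on gene-end regions. Between LPS+Skatole and LPS the counts were 42 and 3, 1 and 2, and 1 and 1 in the same order, with 4 falls centred on gene-end regions. For LPS+Skatole against DMSO, 279 fell under background scaling, 43 rose and 115 fell with the sum of summits, 20 and 25 with the deposited fold and 169 and 158 centred on gene-end regions, while 191 fell after quantile normalization and 52 rose among the 50% of regions greatest in height, where fewer regions were tested. The height gap under the deposited fold was 0.0796 (exact sign-flip test, p = 0.125). Without one library each, members numbered 7398 to 7678. Rises and falls were 12 to 35 and 12 to 34 for LPS against DMSO, 0 to 4 and 2 to 17 between LPS+Skatole and LPS, and 47 to 73 and 264 to 429 for LPS+Skatole against DMSO. The height gap was 0.447 to 0.495, its group differences −0.166 to −0.127, −0.191 to −0.179 and −0.352 to −0.313, and the distance and height differences of library pairs 1.55 to 9.64 bp and 0.0490 to 0.0548. Differences in the share of peaks were −8.05 to −6.22, −4.31 to −3.43 and −11.9 to −10.0 points, in the share of summit counts −4.52 to −3.89, −5.39 to −4.75 and −9.56 to −9.03 points, in covered bp 180 to 255, 48.9 to 68.2 and 241 to 316, and in peaks per member 0.00421 to 0.0185, 0.0242 to 0.0403 and 0.0353 to 0.0498.

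Named calls reversed under the deposited fold, on the log2 scale. For LPS against DMSO these were Isg20 (−1.21), Rab3a (2.27), Mdh1 (1.02), H3f4 (0.18), Smim4 (1.34) and the second Acod1 region (−0.31), and with the sum of summits H2ac10 (0.33). For LPS+Skatole against LPS they were Cenpl (0.49), Khdrbs1 (0.43), Mdh1 (−1.61), H3f4 (−0.57) and H2bc15 (0.19). For LPS+Skatole against DMSO they were Cenpl (0.10), H4c14 (0.63), Khdrbs1 (0.19), Nfe2l3 (0.28), H2bc15 (0.09), H2ac23 (1.00), H2ac10 (0.48), the second Acod1 region (−0.40) and Khsrp (0.03).

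Libraries with the same replicate number deviated no more alike than others (correlations −0.0124 to 0.0314 against −0.0283 to 0.0204), so the numbers gave no pairing. With a replicate block 27 members rose and 24 fell for LPS against DMSO, 2 and 8 between LPS+Skatole and LPS, and 75 and 447 for LPS+Skatole against DMSO. Depth limits the DMSO libraries most, where the lowest member summits held 8 or 9 fragments, and total reads were not used here.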
